A study of Mus musculus with 1152 samples.

Results

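Fibroblasts of the adult mouse brain were described here well by well and set against endothelial cells from the same table. A well was taken as a fibroblast well where it had at least 50000 reads and at least 3 of the 6 genes Col1a1, Col1a2, Col3a1, Dcn, Lum and Slc6a13 at 200 CPM (the reads of a gene scaled to 1e+06 reads of that well) or more. An endothelial well had at least 3 of the 8 genes Pecam1, Cldn5, Flt1, Cdh5, Kdr, Tek, Ly6c1 and Emcn at that level. Of 1152 wells, 857 had enough reads, and 108 of them passed the fibroblast gate. The 21 wells that also passed the endothelial gate were left out, so the members were chosen by expression alone and numbered 87, or 10.2% of the 857 wells (95% Clopper-Pearson interval 8.21 to 12.4%). The comparison class held 64 wells of the 85 that passed the endothelial gate.

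The study sorted single fluorescent cells from brains of adult C57BL/6 mice of both sexes and made a SMART-seq2 library, which amplifies full-length cDNA, from each well. 2 mouse lines were used. Nuclei of Pdgfra-expressing cells are green in Pdgfra-H2BGFP mice (Pdgfra encodes a receptor for platelet-derived growth factor). In Tagl-CREERT2;Ai14 mice, spelled as in the labels, a Cre that tamoxifen activates turns on the red reporter Ai14. Tissue was digested, and beads coated with an antibody to CD31 pulled out vascular fragments before a further digestion, so the cells came from vessels and what stayed attached to them. The labels tie no well to a line, animal or plate, and all wells therefore count as 1 sample of wells in 3 sets, named 1025s_182s, 600s_182s and 613s.

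Brain fibroblasts live in the meninges and around larger vessels, where they make collagen, proteoglycans and part of the basement membrane and secrete retinoic acid, growth factors and chemokines. Those of the leptomeninges also carry transporters for amines and organic anions. Endothelial cells line the vessels and form the blood-brain barrier through tight junctions and dedicated nutrient and efflux transporters.

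Fibroblast wells came from all 3 sets, with 37 in 1025s_182s, 23 in 600s_182s and 27 in 613s, and endothelial wells with 29, 6 and 29. Fibroblast wells ranged from 53746 to 1321639 reads, with medians of 237174 reads and 5918 genes. Endothelial wells ranged from 54318 to 1189040 reads, with medians of 308147 reads and 7243 genes, so the comparison class was the deeper of the 2. The median share of mitochondrial reads was 1.62% and 2.30%. No 2 wells held identical counts. Wells are cells of 1 sample and not replicates, so no test was made, and every interval covers counting error only.

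The gate genes gave the levels that chose the wells and are a description only. Decorin (Dcn, chr10:97479609-97518143 on the + strand of GRCm38), a small collagen-binding proteoglycan, ranged from 0 to 14014 CPM with a median of 2771 in fibroblast wells, and 85 of 87 wells reached 200 CPM. In endothelial wells its median was 25.3 CPM, and 12 of 64 reached 200 CPM. Col1a1 (chr11:94936224-94953042, +) and Col1a2 (chr6:4504814-4541544, +), the chains of type I collagen, were at medians of 2128 and 1489 CPM and passed 200 CPM in 80 and 82 wells. Lumican (Lum, chr10:97565128-97572703, +), another collagen-binding proteoglycan, passed in 69 wells, and the type III collagen gene Col3a1 (chr1:45311538-45349706, +) in 48. Per kilobase of exon, the summed reads of the fibroblast wells put Lum first at 553 CPM per kb, then Dcn at 478, Col1a1 at 355, Slc6a13 at 200, Col1a2 at 142 and Col3a1 at 78.2. The sixth gate gene behaved differently: Slc6a13 (chr6:121300227-121337733, +), a transporter of GABA and taurine, passed 200 CPM in 28 wells, and its median was 0 CPM.

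**Figure D1:**
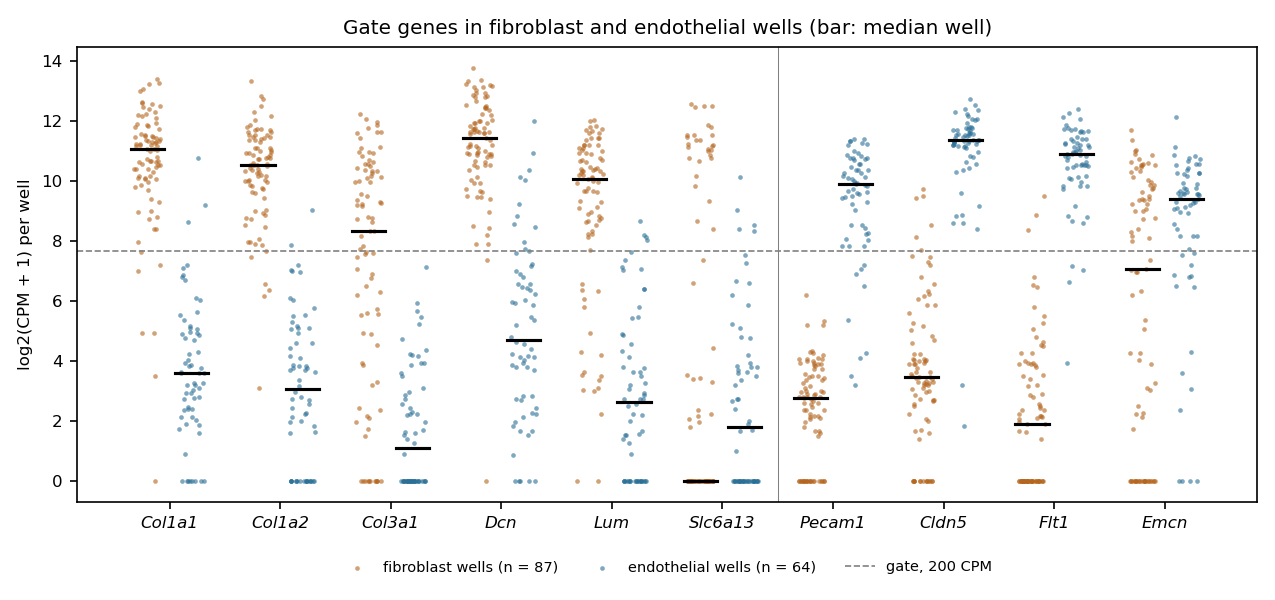
Level of gate genes in each of 87 fibroblast and 64 endothelial wells, as log2(CPM + 1) on the vertical axis, with the median well as a bar and the 200 CPM gate as a dashed line. Col1a1, Col1a2, Dcn and Lum stand above the line in most fibroblast wells, Slc6a13 in 28 of 87, and Emcn crosses it in 42 fibroblast and 48 endothelial wells.

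Endothelial gate genes were low in fibroblast wells with 1 exception. PECAM-1 (Pecam1), the CD31 antigen itself, was at 6.52 CPM of the summed fibroblast reads and 1106 CPM of the endothelial reads, and no fibroblast well reached 200 CPM. Cldn5, the main tight-junction claudin of brain vessels, was at 71.2 against 2413 CPM, and Flt1, a VEGF receptor, at 32.8 against 1977 CPM. Emcn, the sialomucin endomucin, was at 643 CPM in fibroblast and 763 CPM in endothelial wells, a log2 ratio of −0.24. It passed 200 CPM in 42 of 87 fibroblast wells and 48 of 64 endothelial wells, so over all sets the level did not separate the classes. The sets differed, with log2 ratios of 0.02 in 1025s_182s and −0.23 in 613s, while in 600s_182s Emcn was at 18.8 against 490 CPM (−4.63) and passed in 1 of 23 fibroblast and 4 of 6 endothelial wells. Leaving Emcn out of the endothelial gate moved the wells that passed that gate from 85 to 80, and those that passed both from 21 to 17.

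The label was checked on 8 fibroblast markers outside the gate, the summed level of which ran from 53.9 to 9091 CPM (median 1716) in fibroblast wells and from 0 to 1843 CPM (median 26.5) in endothelial wells. At least 3 of these 8 reached 200 CPM in only 36 of the 87 fibroblast wells and in 1 endothelial well. By the same count, 8 endothelial markers outside the gate passed in 56 of the 64 endothelial wells and in 1 fibroblast well. Among the fibroblast markers, Pdgfra, the gene of the reporter line (chr5:75152292-75198215, +), ranged from 0 to 3223 CPM with a median of 255. For it, 49 fibroblast wells but 1 endothelial well reached 200 CPM. Its exons overlap those of 3 other annotated genes, and the counting's treatment of shared reads is not known. Tagln, the smooth-muscle gene transgelin, was at 24.9 CPM in fibroblast and 198 CPM in endothelial wells. With the 35 fibroblast and 7 endothelial wells that carried no other cell type, its log2 ratio went from −2.94 to 0.13, near 0. At the edge of the gate, the third-highest gate gene stood at 202, 228, 236, 238 and 247 CPM in the 5 wells just inside and at 199, 194, 192, 180 and 171 CPM in the 5 just outside.

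Most wells held RNA of more than 1 cell type. All 9 oligodendrocyte markers, such as the myelin gene Mbp, were above 10 CPM in both classes. Their summed level was 145 to 57540 CPM (median 2066) in fibroblast wells and 765 to 51496 CPM (median 2307) in endothelial wells. At least 3 of them reached 200 CPM in 47 of 87 fibroblast wells and 40 of 64 endothelial wells. The 7 microglial markers differed more, with a median sum of 78.8 CPM in fibroblast wells against 1061 CPM in endothelial wells, and at least 3 passed in 2 and 26 wells. At least 3 pericyte markers passed in 2 fibroblast and 15 endothelial wells, and at least 3 smooth-muscle markers in 0 and 8. Choroid plexus markers summed to medians of 255 and 242 CPM, with highest wells of 12875 and 15245 CPM, and at least 3 passed in 4 fibroblast and 6 endothelial wells. At least 3 markers of oligodendrocyte precursors passed in 8 and 5 wells. None of the 87 fibroblast wells had 3 astrocyte, neuron, ependymal, arachnoid barrier or blood cell markers at 200 CPM, and the arachnoid barrier gene Cdh1 had no read in them. The part of this mixing in the differences given next was not tested. Where leaving out mixed wells turned a value, the turned value is given beside it.

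**Figure D2:**
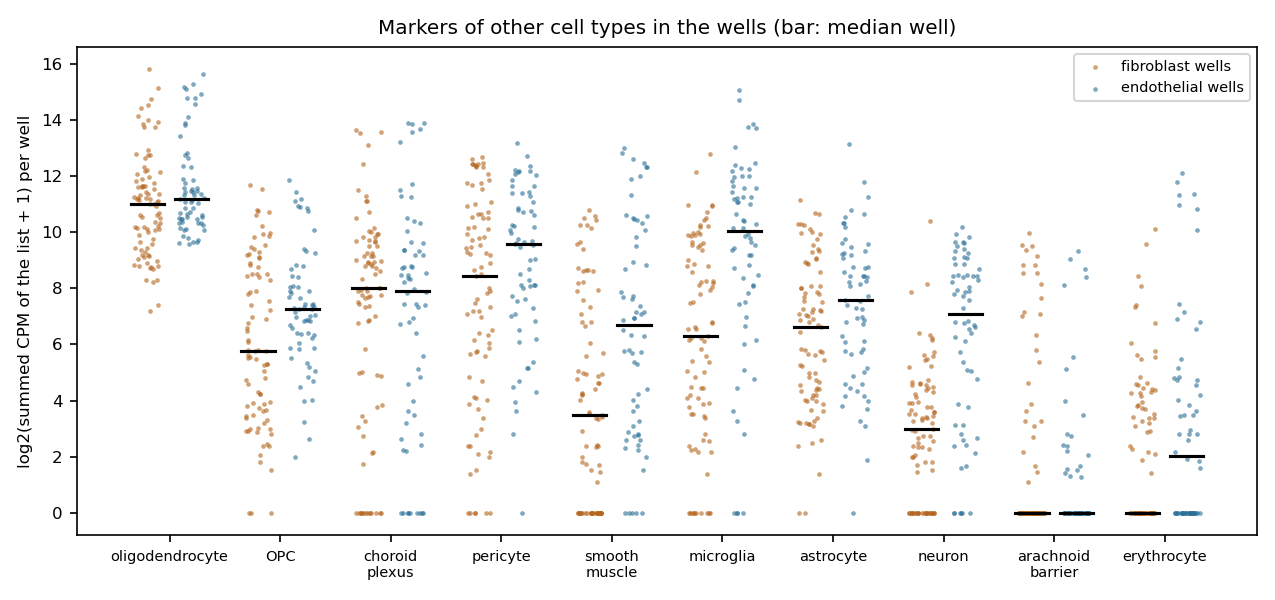
Summed level of marker lists of other cell types in each fibroblast and endothelial well, as log2(summed CPM + 1), with the median well as a bar. Oligodendrocyte markers lie at similar medians in both classes (2066 and 2307 CPM), while microglial markers have medians of 78.8 and 1061 CPM.

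Across 11926 genes with at least 10 CPM in either class, 2576 (21.6%) were called higher in fibroblast wells and 2664 (22.3%) higher in endothelial wells. A call needed a ratio of summed CPM of at least 2, with 1 CPM added to each side, and at least 10 CPM in the higher class. The median log2 ratio of all tested genes was −0.08. The same direction was called in all 3 sets for 722 fibroblast-higher and 734 endothelial-higher genes. Since the classes were cut on expression, these counts and the lists below are descriptions of the 2 classes. Counts of called members in each list are to be read against the shares of 21.6% and 22.3% over all genes.

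The 12 highest ratios outside the gate and marker genes, among broadly detected genes called in every set, ran from 5.56 to 7.08 on the log2 scale. Svep1 (chr4:58042442-58206859, −), a large adhesion protein of the extracellular matrix, had 304 CPM in fibroblast and 1.26 CPM in endothelial wells, a log2 ratio of 7.08. It was unevenly spread, from 0 to 2627 CPM with a median of 18.3, and passed 200 CPM in 29 wells and in no endothelial well. Col6a2 (chr10:76595762-76623630, −), a chain of the beaded-filament collagen VI, had 413 against 2.29 CPM (log2 ratio 6.98), and 37 wells reached 200 CPM. Cpxm1, a carboxypeptidase-like secreted protein, had 903 against 6.55 CPM (6.90). Efemp1, the elastic-fibre glycoprotein fibulin-3, was the most regular of the 12, with a median well of 737 CPM, 59 wells at 200 CPM and reads in 87.4% of wells thinned to 50000 reads, against 34.4% of endothelial wells. The others were Itih2 (log2 ratio 6.24), a hyaluronan-binding inhibitor chain, the microfibril protein Mfap4 (6.24), the ferritin receptor Scara5 (6.09), the aldehyde oxidase Aox3 (5.93), the lipolysis inhibitor G0s2 (5.80), the mesenchymal cadherin Cdh11 (5.74), the matrix protein Matn2 (5.65) and the gelatinase Mmp2 (5.56). In the median fibroblast well, 8 of these 12 stood under 100 CPM, and each of the 12 had no read in at least 9 of the 87 wells.

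The opposite end held 12 genes that were near 0 in fibroblast wells. Icam2, an endothelial adhesion molecule, was at 1.09 against 481 CPM (log2 ratio −7.85), with a highest fibroblast well of 18.3 CPM and a median endothelial well of 458 CPM. Sox18, a transcription factor of vessel development, was at 1.67 against 604 CPM (−7.82), and Gkn3, a gastrokine expressed in brain arteries, at 1.79 against 534 CPM (−7.58). Vwf (−7.51), the von Willebrand factor of haemostasis, Mmrn2 (−7.44), an endothelial matrix protein, Apold1 (−7.38), Ushbp1 (−7.31), the caveolar coat protein Cav1 (−7.30), the carbonic anhydrase Car4 (−7.26) and Cyyr1 (−7.00) followed, with AI467606 (−7.38) and AU021092 (−7.20), named by database identifiers. No fibroblast well reached 200 CPM for any of the 12, and 13 to 49 endothelial wells did.

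Bases just before the RefSeq start (GRCm38.p6) are shown for genes that carry this contrast and the variation described below: the gate gene Col3a1 and Aox3 among the fibroblast genes, Gkn3 among the endothelial genes, and Dpep1 and Alpl, which divided the fibroblast wells. Each is the 120 bases before the start, read 5′ to 3′ on the gene's strand. Capitals mark TATAAA, or ATTGG, which is CCAAT on the opposite strand.
Col3a1 (chr1:45311418-45311537, + strand): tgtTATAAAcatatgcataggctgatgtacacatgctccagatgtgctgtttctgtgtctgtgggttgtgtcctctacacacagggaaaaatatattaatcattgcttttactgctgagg
Aox3 (chr1:58113016-58113135, + strand): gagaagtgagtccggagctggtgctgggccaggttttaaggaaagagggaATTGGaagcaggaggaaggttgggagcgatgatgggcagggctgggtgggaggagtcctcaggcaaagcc
Gkn3 (chr6:87388936-87389055, − strand): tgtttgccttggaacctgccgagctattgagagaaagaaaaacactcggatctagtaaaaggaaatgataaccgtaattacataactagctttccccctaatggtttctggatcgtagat
Dpep1 (chr8:123186115-123186234, + strand): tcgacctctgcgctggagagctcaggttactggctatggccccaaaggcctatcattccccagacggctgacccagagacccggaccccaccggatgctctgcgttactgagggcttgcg
Alpl (chr4:137796385-137796504, − strand): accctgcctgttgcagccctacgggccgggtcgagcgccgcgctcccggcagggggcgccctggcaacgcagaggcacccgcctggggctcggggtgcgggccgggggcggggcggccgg

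These windows differed in base composition, from 40% G and C before Col3a1 and Gkn3 to 82.5% before Alpl, which held 16 CpG pairs where Col3a1 held 0. Searched on both strands over the 250 bases before the start, TATAAA was present at 12.2% of 20557 mouse genes, CCAAT at 35.1% and the ETS core CGGAAGT at 6.00%. The 7 of 12 highest fibroblast genes with an entry held them in 1, 2 and 0 cases, and the 7 of 12 endothelial genes in 2, 1 and 0 cases. A match is a description of the letters.

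In the summed reads of all fibroblast wells, collagens were the most uniform group. All 17 tested interstitial collagen genes outside the gate (of 18 listed) were called higher in fibroblast wells, with a median log2 ratio of 3.31 and set medians of 3.95, 3.45 and 4.47. After Col6a2 came Col16a1 at 151 against 0.99 CPM (6.25), Col26a1 at 134 against 2.65 CPM (5.21) and Col5a1, the chain that nucleates collagen fibrils, at 89.6 against 1.57 CPM (5.14). Each was nevertheless present at 200 CPM in a minority of wells, from 10 for Col5a1 to 37 for Col6a2. Of 22 tested genes for collagen folding, hydroxylation and cross-linking, 16 were called higher in fibroblast wells and 2 in endothelial wells (median 2.58). Fkbp10, a collagen chaperone, had 227 against 5.38 CPM (5.16), Adamts2, which trims procollagen, 98.6 against 2.15 CPM (4.98) and the collagen hydroxylase family gene P3h3 138 against 5.88 CPM (4.34). Loxl4 (5.25), a lysyl oxidase, reached 200 CPM in 2 wells only, with set values of 0.33, 0.00 and 6.09. The 2 exceptions, P3h2 (−2.02) and Pcolce2 (−2.17), went to 0.73 and 0.12 in wells without other cell types, of which 7 were endothelial. The value of Pcolce2 there is near 0, a lost difference rather than a turn.

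Proteoglycans and microfibril genes were mostly higher as well. Of 9 tested small leucine-rich proteoglycans outside the gate, 7 were called higher in fibroblast wells (median 3.42). Epyc, epiphycan, had 61.3 CPM in 4 wells at 200 CPM against 1 read in endothelial wells, Omd, osteomodulin, 43.6 against 0.27 CPM, Podn 83.0 against 4.35 CPM (3.97) and Fmod, fibromodulin, 214 against 18.6 CPM (3.45). Bgn, biglycan, chosen after its values were seen because it was the most abundant of the list, was at 2072 against 193 CPM and passed 200 CPM in 80 fibroblast wells. Aspn, asporin, went the other way at 3.22 against 68.7 CPM (−4.05), and to 1.07 without wells carrying pericyte, smooth-muscle or microglial markers. Among 16 elastic-fibre, microfibril and fibronectin genes, 10 were called higher in fibroblast wells (median 2.81), led by Efemp1, Mfap4, Emilin1 at 995 against 31.6 CPM (4.93) and Mfap5 (4.03). Fibronectin itself (Fn1) was higher in endothelial wells, at 675 against 64.4 CPM (−3.37), in 39 wells against 4, and in each of the 3 sets (−2.60, −4.78 and −4.90). Ltbp4, which binds latent TGF-beta, was also on that side at 292 against 634 CPM (−1.12).

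The basement membrane genes split by laminin chain. Of 19 tested, 13 were called higher in fibroblast wells and 3 in endothelial wells (median 2.68). Lama2, the alpha chain of mesenchymal laminin, was at 580 against 12.7 CPM (5.40) and passed 200 CPM in 53 wells against 0. Lama1, the alpha chain of early and meningeal laminin, was at 383 against 10.7 CPM (5.03) in 30 wells, and Lamb1, a beta chain, at 646 against 24.9 CPM (4.65) in 58 wells. Lamc3 followed at 539 against 36.4 CPM (3.85). Lama5, the alpha chain of mature endothelial laminin, was at 5.09 against 98.3 CPM (−4.03), and Lama3 had 2 reads in all fibroblast wells against 38.3 CPM in endothelial wells. Agrn, the heparan sulfate proteoglycan agrin, was at 31.5 against 164 CPM (−2.35). Lama3 went to 0.12, near 0, in wells without other cell types, so its difference was lost there. Matrix proteases and their inhibitors were called higher in fibroblast wells in 13 of 18 cases and in endothelial wells in 0 (median 2.18). Adamts12 (5.73), Mmp2, Mmp23 (5.40) and the membrane collagenase Mmp14 (4.76) led, Mmp14 with 552 against 19.4 CPM and 48 wells at 200 CPM.

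**Figure D3:**
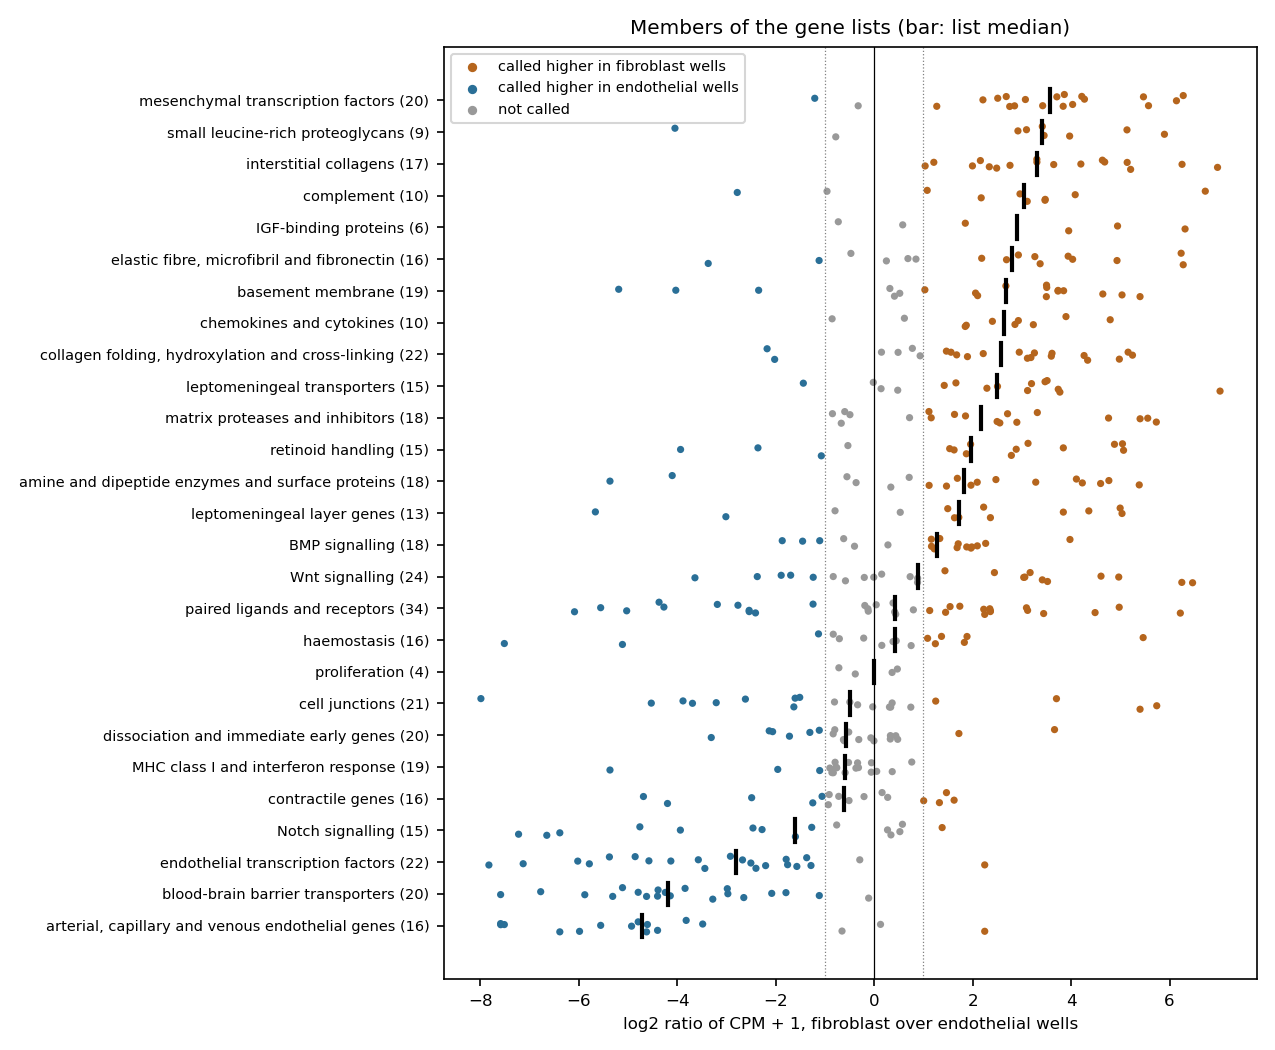
Log2 ratio of summed CPM, fibroblast over endothelial wells, for each tested member of the 27 gene lists on the horizontal axis (1 point per gene, list median as a bar, number tested in brackets). Interstitial collagens lie to the right of 1 without exception, and blood-brain barrier transporters lie left of −1 in 19 of 20 cases.

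Transcription factors differed in opposite directions in the 2 lists. 18 of 20 tested mesenchymal factors were called higher in fibroblast wells and 1 in endothelial wells (median 3.57). Foxc2, a forkhead factor of mesenchyme, was at 97.6 against 0.27 CPM (6.28), Osr1 at 91.7 against 0.31 CPM (6.14) and Tcf21, a factor of fibroblast lineages, at 316 against 6.15 CPM (5.47). Osr1 passed 200 CPM in 7 wells and Tcf21 in 29, so single wells set part of these sums. Meox1 (−1.21) turned to 0.20 without the set 613s. Of 22 endothelial factors, 20 were called higher in endothelial wells (median −2.80), with Sox18, Sox17 (0.78 against 247 CPM), the ETS factor Erg (0.27 against 81.5 CPM) and the Wnt effector Lef1 (3.84 against 266 CPM) lowest. Nr2f2, a nuclear receptor used as a venous marker, was the exception at 344 against 71.7 CPM (2.25), and it passed 200 CPM in 45 fibroblast wells against 6 endothelial wells.

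Transporters divided in the same way. 11 of 15 tested transporters listed for the leptomeninges were called higher in fibroblast wells and 1 in endothelial wells (median 2.51). Slc22a6, an organic anion transporter, was at 246 against 0.90 CPM (7.03), carried by 13 wells at 200 CPM, and the ABC transporters Abca8a and Abca9, whose reads related family members can share, were at 296 against 21.3 CPM (3.74) and 360 against 30.6 CPM (3.51). Slc16a12 (3.77) passed 200 CPM in 3 wells. The exception, Slc26a2 (−1.44), turned to 0.96 without wells carrying pericyte, smooth-muscle or microglial markers. None of 20 blood-brain barrier transporters was called higher in fibroblast wells and 19 were called higher in endothelial wells (median −4.19). The amino acid transporter Slc38a5 was at 1.32 against 445 CPM (−7.59), the efflux pump gene Abcb1a at 3.65 against 507 CPM (−6.77), the organic anion transporter Slco1a4 at 27.0 against 1645 CPM (−5.88) and Slc19a3, a thiamine transporter, at 5.67 against 263 CPM (−5.31). Slc38a5 and Slc19a3 were near 0 in both classes in the set 600s_182s, where the log2 ratios were −0.63 and 0.00.

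Retinoid genes were mixed. 11 of 15 tested were called higher in fibroblast wells and 3 in endothelial wells (median 1.96). Rbp4, which carries retinol in plasma, was at 68.6 against 1.08 CPM (5.07) in 7 wells at 200 CPM, the retinoic acid receptor Rarb at 109 against 2.74 CPM (4.88) in 17, and Aldh1a2, which makes retinoic acid, at 203 against 13.2 CPM (3.84) in 15. Crabp1 reached 200 CPM in 4 wells. Stra6, the retinol uptake receptor, was on the endothelial side at 43.7 against 228 CPM (−2.36), as was Cyp26b1, which degrades retinoic acid, with 2 reads in all fibroblast wells against 15.4 CPM in endothelial wells, and the receptor Rarg (−1.07). Cyp26b1 went to 0.12, near 0, in wells without other cell types, so its difference was lost there.

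Ligands and their receptors are given as pairs. Of 34 tested, 15 were called higher in fibroblast wells and 11 in endothelial wells (median 0.43). In the platelet-derived growth factor family both receptors lay on the fibroblast side, Pdgfra at 415 against 12.2 CPM (4.98) and Pdgfrb at 870 against 99.4 CPM (3.12), and 3 ligands on the endothelial side, Pdgfb at 2.21 against 104 CPM (−5.03), Pdgfa at 11.6 against 72.2 CPM (−2.54) and Pdgfd (−1.24). At least 3 pericyte markers passed in 15 endothelial and 2 fibroblast wells. The part of these wells in the Pdgfrb values was not tested. In the VEGF family Vegfa was at 41.3 against 3.95 CPM (3.10) in 4 wells at 200 CPM, Pgf at 255 against 48.8 CPM (2.36) in 24 wells, and Vegfc at 1.24 against 104 CPM (−5.55). Hgf, hepatocyte growth factor, was at 120 against 0.63 CPM (6.22) in 10 wells. Edn1, endothelin-1, was at 2.17 against 214 CPM (−6.09). Its receptor Ednra was at 109 against 36.6 CPM (1.54) and Ednrb at 8.73 against 50.7 CPM (−2.41). The value of Ednrb went to 0.17, near 0, in wells without other cell types. Angpt1, which activates the endothelial receptor Tek, was at 172 against 14.9 CPM (3.44), and its set values were 2.64, −1.34 and 5.72. Kitl, stem cell factor, was at 16.1 against 352 CPM (−4.37), and its receptor Kit at 53.5 against 23.9 CPM (1.13), which turned to −0.39 without the set 1025s_182s. Among growth factors shared with brain tissue, the midkine gene Mdk was at 303 against 12.6 CPM (4.49), while Ptn (0.38) and the chemokine Cxcl12 (0.42), at 1147 and 1536 CPM in fibroblast wells, were not called. Igf2, which is imprinted and used as a leptomeningeal marker, was at 695 against 134 CPM (2.36), and its clearance receptor Igf2r at 5.40 against 36.1 CPM (−2.54). The TGF-beta ligands split, with Tgfb3 at 40.1 against 11.3 CPM (1.74) and Tgfb2 at 27.1 against 190 CPM (−2.77), and the receptors Tgfbr1 (−0.19) and Tgfbr2 (0.04) were not called. Of the rest, Nrp2 (2.35), Angpt2 (2.25), Igf1 (2.23) and Tgfbr3 (199 against 72.3 CPM) were called higher in fibroblast wells and Tie1 (−4.27) and Ackr3 (−3.18) in endothelial wells, and Nrp1 (0.80), Aplnr (0.44), Igf1r (−0.12) and Vegfb (−0.13) were not called.

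**Figure D4:**
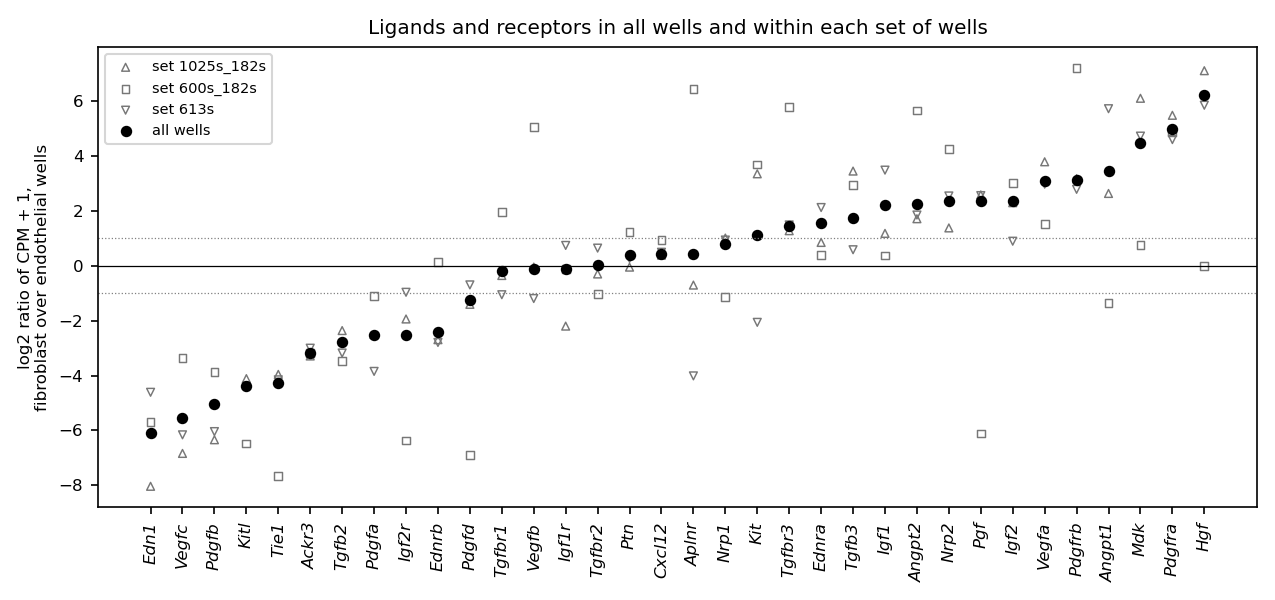
Log2 ratio of summed CPM, fibroblast over endothelial wells, for the 34 tested ligands and receptors in all wells (filled points) and within each of the 3 sets of wells (open symbols). Hgf (6.22) and Pdgfra (4.98) are at one end and Edn1 (−6.09) at the other, and the squares of 600s_182s, which held 6 endothelial wells, scatter most.

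Signalling lists ranged from a median log2 ratio of −1.60 for Notch to 2.90 for IGF-binding proteins. The Notch median was −2.92, 0.35 and −2.94 in 1025s_182s, 600s_182s and 613s, and the BMP median 1.30, −0.12 and 1.44. In BMP signalling 12 of 18 tested genes were called higher in fibroblast wells and 3 in endothelial wells (median 1.28), but taking the median well in place of the sum gave a list median of −1.86. Bmp7 was at 219 against 13.0 CPM (3.98) in 21 wells, Bmp6 at 46.3 against 8.84 CPM (2.27) and Bmp4 at 87.5 against 19.7 CPM, although its median wells gave a log2 ratio of −0.52. The receptor Acvrl1 was on the endothelial side at 92.9 against 341 CPM (−1.87), as were the target Id1 at 249 against 683 CPM and the receptor Bmpr2 (−1.10), while the inhibitor Smad6 was at 82.1 against 20.0 CPM (1.98). In Wnt signalling 11 of 24 were called higher in fibroblast and 5 in endothelial wells (median 0.88). The secreted antagonist relative Dkk3 was at 318 against 2.60 CPM (6.47), Wnt2 at 178 against 1.35 CPM (6.25), the receptor Fzd2 at 97.8 against 2.15 CPM (4.97) and the antagonist Frzb at 97.8 against 3.05 CPM (4.61), while Fzd6 was at 18.8 against 246 CPM (−3.64), Tnfrsf19 at 58.4 against 307 CPM (−2.37), the antagonist Apcdd1 at 15.0 against 58.3 CPM (−1.89) and Tspan12, a co-receptor of norrin signalling, at 42.4 against 139 CPM (−1.69). In Notch signalling 1 of 15 was called higher in fibroblast wells, Notch2 (1.38), and 9 in endothelial wells (median −1.60), with the ligands Dll4 and Jag2 at 3 reads each in all fibroblast wells against 166 and 111 CPM in endothelial wells and the targets Hey1 and Nrarp at 1.55 against 212 CPM (−6.38) and 0.70 against 45.0 CPM (−4.76). Of 6 tested IGF-binding protein genes, 4 were called higher in fibroblast wells and none in endothelial wells (median 2.90), and Igfbp4 was the most regular at 2342 against 150 CPM (3.95) with 78 wells at 200 CPM. Igfbp6 (6.32) passed in 11 wells, Igfbp5 (4.95) in 48 and Igfbp2 (1.85) in 50.

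Junction genes were mixed, with 4 of 21 called higher in fibroblast wells and 9 in endothelial wells (median −0.49), against 21.6% and 22.3% of all genes. The set medians were 0.11 in 1025s_182s, −0.78 in 600s_182s and −1.44 in 613s. Cdh11 had 693 against 12.0 CPM (5.74) and the gap-junction genes Gjb2 and Gjb6 438 against 9.38 CPM (5.40) and 338 against 25.0 CPM (3.70). Cldn11, a claudin of arachnoid and myelin, was at 570 against 239 CPM (1.25) and is also made by oligodendrocytes, markers of which were present in both classes. Esam, an endothelial adhesion molecule, was at 2.95 against 1000.1 CPM (−7.99), the tight-junction genes Jam2 and Ocln at 26.8 against 409 CPM (−3.88) and 30.8 against 409 CPM (−3.69), and Marveld2, tricellulin, had no read in fibroblast wells, which with a floor of 3 counts over the class is at least 7.56 log2 units lower.

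Complement genes lay on the fibroblast side in 8 of 10 tested cases and on the endothelial side in 1 (median 3.04). C2 was at 162 against 0.54 CPM (6.73) in 17 wells, Colec12, a scavenger receptor, at 986 against 57.2 CPM (4.09) in 62 wells and the C1 inhibitor Serping1 at 1553 against 139 CPM (3.48) in 74 wells, and C4b (3.47), whose reads a near-identical copy can share, passed in 7, while Cd59a, which shields cells from lysis, was at 39.2 against 275 CPM (−2.78). Of 10 tested chemokine and cytokine genes 8 were called higher in fibroblast wells and none in endothelial wells (median 2.63). Cxcl10 (4.80) passed 200 CPM in 3 wells, the eotaxin gene Ccl11, at 13.9 CPM and listed at 0 in endothelial wells, in 2, Cxcl16 at 219 against 22.3 CPM (3.23) in 29 and Il34, which feeds microglia, at 329 against 42.4 CPM (2.93) in 28. Il33, an alarmin chosen after its values were seen as the most abundant, was at 611 against 83.3 CPM and passed in 52 wells. Among 16 haemostasis genes 6 and 3 were called (median 0.42), against 21.6% and 22.3% of all genes. Tissue factor (F3) was at 925 against 20.0 CPM (5.47) in 48 wells against 1, Serpine2 at 916 against 256 CPM (1.83) and the plasminogen activator Plat at 1458 against 564 CPM (1.37). Nos3, the endothelial nitric oxide synthase, was at 5.05 against 208 CPM (−5.11). Plau (1.89) turned to −0.13 without the set 613s and Ptgs1 (−1.13) to 3.32 without wells carrying pericyte, smooth-muscle or microglial markers. Of 19 MHC class I and interferon genes none was called higher in fibroblast wells and 3 in endothelial wells (median −0.59), namely Ly6a (−5.36) and Ly6e (−1.96), whose family members are similar in sequence, and Ifit1 (−1.10).

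Of 20 dissociation and immediate early genes, 2 were called higher in fibroblast wells and 6 in endothelial wells (median −0.56), against 21.6% and 22.3% of all genes. Fos, chosen after its values were seen as the most abundant, was at 2826 CPM in fibroblast and 2027 CPM in endothelial wells, so both classes carried immediate early transcripts. Socs3 was at 647 against 195 CPM (1.72), Egr2 at 26.5 against 1.17 CPM (3.66) and Atf3 at 39.9 against 404 CPM (−3.31). Btg2 (−2.13) and the heat-shock genes Hspa1a (−2.06) and Hspa1b (−1.72), near-identical copies that can share reads, were also on the endothelial side. Hspa1b turned to 0.33 in wells without other cell types. Of 16 contractile genes 4 and 5 were called (median −0.61), where 21.6% and 22.3% of all genes were called. Cald1, caldesmon, was highest at 907 against 293 CPM (1.63). The actin cross-linker Flna (1.47) and the calponins Cnn3 (1.33) and Cnn2 (1.01) followed. Synpo2 (−2.49) and the intermediate filament gene Vim (−1.25) were lower, and Synpo2 turned to 3.55 in wells without other cell types. Lmod1 had 4 reads in fibroblast wells against 28.7 CPM in endothelial wells. Smooth-muscle markers passed in 8 endothelial wells and no fibroblast well, and their part in the contractile values was not tested. 4 of 11 proliferation genes were tested and none was called. Of 18 tested genes for amine and dipeptide enzymes and surface proteins, 12 were called higher in fibroblast wells and 2 in endothelial wells (median 1.83), led by the dipeptidase Dpep1 at 1072 against 24.7 CPM (5.38), cochlin (Coch) at 1410 against 50.8 CPM (4.77), the methyltransferase Inmt at 1166 against 47.1 CPM (4.60) and Tgfbi at 2669 against 141 CPM (4.23). Cd34 was at 55.3 against 965 CPM (−4.10). Of 13 tested leptomeningeal layer genes 9 were called higher in fibroblast wells and 2 in endothelial wells (median 1.72), with Cyp1b1, a cytochrome P450, at 455 against 13.3 CPM (5.00) in 45 wells and the neurotrophin receptor Ngfr at 47.2 against 1.35 CPM (4.36) in 5. Nov and Dpp4 went the other way at 0.27 against 63.4 CPM (−5.66) and 3.42 against 34.6 CPM (−3.01). Without the set 613s, Dpp4 turned to 0.62. Of 16 arterial, capillary and venous endothelial genes, 8 of which other lists also hold, 13 were called higher in endothelial wells and 1, Nr2f2, in fibroblast wells (median −4.71).

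Fibroblast wells were not alike. Ward clustering on the 500 most variable genes, with gate genes and markers of other cell types left out, was cut into 3 groups of 33, 28 and 26 wells. The groups come from the same wells they describe, so their genes are a description and the groups are given no cell type name. Group 1 held 8, 22 and 3 wells of 1025s_182s, 600s_182s and 613s, group 2 held 11, 1 and 16, and group 3 held 18, 0 and 8. Median depth was 144616, 464810 and 248834 reads, and 25, 14 and 8 wells had at least 3 oligodendrocyte markers at 200 CPM. At least 3 markers of oligodendrocyte precursors passed in 8, 0 and 0 wells, and at least 3 choroid plexus markers in 0, 4 and 0. The pericyte list, which includes Vtn, summed to medians of 2178, 67.7 and 55.4 CPM. At least 3 of its markers passed in 2, 0 and 0 wells. In the well with the highest sum, 6639 CPM in group 1, Vtn gave all of it. The choroid plexus list summed to medians of 13.2, 478 and 545 CPM and the microglial list to 17.3, 221 and 104 CPM. Set, depth and these markers thus moved with the groups, and across all sets they cannot be told apart. Only 1025s_182s held at least 5 wells on both sides, 8 in group 1 and 29 in groups 2 and 3. Within it, group 1 was called higher at 21% of 10595 genes and lower at 55.4%, with a median log2 ratio of −1.83, so lower values in group 1 there are read against that shift. Values within this set are given for the genes compared between group 1 and groups 2 and 3.

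The division was sharpest for a few genes, those beyond the 10 leading genes of each group having been chosen after their values were seen. Slc6a13, which is a gate gene but was not used for the clustering, was at 200 CPM or more in 28 of the 33 wells of group 1, with a median of 2158 CPM and a highest well of 6044 CPM. In the 54 wells of groups 2 and 3 the median was 0 CPM, the highest well 162 CPM and the number at 200 CPM 0. Dpep1, the dipeptidase that also cleaves leukotrienes, was the reverse, with 42 of 54 wells at 200 CPM, a median of 1278 CPM and a highest well of 4190 CPM in groups 2 and 3, and a highest well of 26.9 CPM in group 1. Alpl, tissue-nonspecific alkaline phosphatase, was at 200 CPM in 51 of 54 wells against 1 of 33, with medians of 3112 and 6.37 CPM. No well had both Slc6a13 and Dpep1, or both Slc6a13 and Alpl, at 200 CPM, and 7 of 87 wells had neither of the latter pair. Vtn, vitronectin, which was listed as a pericyte marker, reached 200 CPM in 28 wells of group 1 and 1 other well, and 26 wells had it with Slc6a13. Within 1025s_182s the sums kept these directions, with Slc6a13 at 2777 against 0.30 CPM, Vtn at 2723 against 1.38 CPM, Dpep1 at 1.20 against 1384 CPM and Alpl at 223 against 3240 CPM. The share of fibroblast wells with Slc6a13 at 200 CPM was 18.9% in 1025s_182s (exact 95% interval 7.96 to 35.2%), 78.3% in 600s_182s (56.3 to 92.5%) and 11.1% in 613s (2.35 to 29.2%). Pooled over the sets the log2 ratio to endothelial wells was 4.19 for Slc6a13, while the median well gave −1.81.

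**Figure D5:**
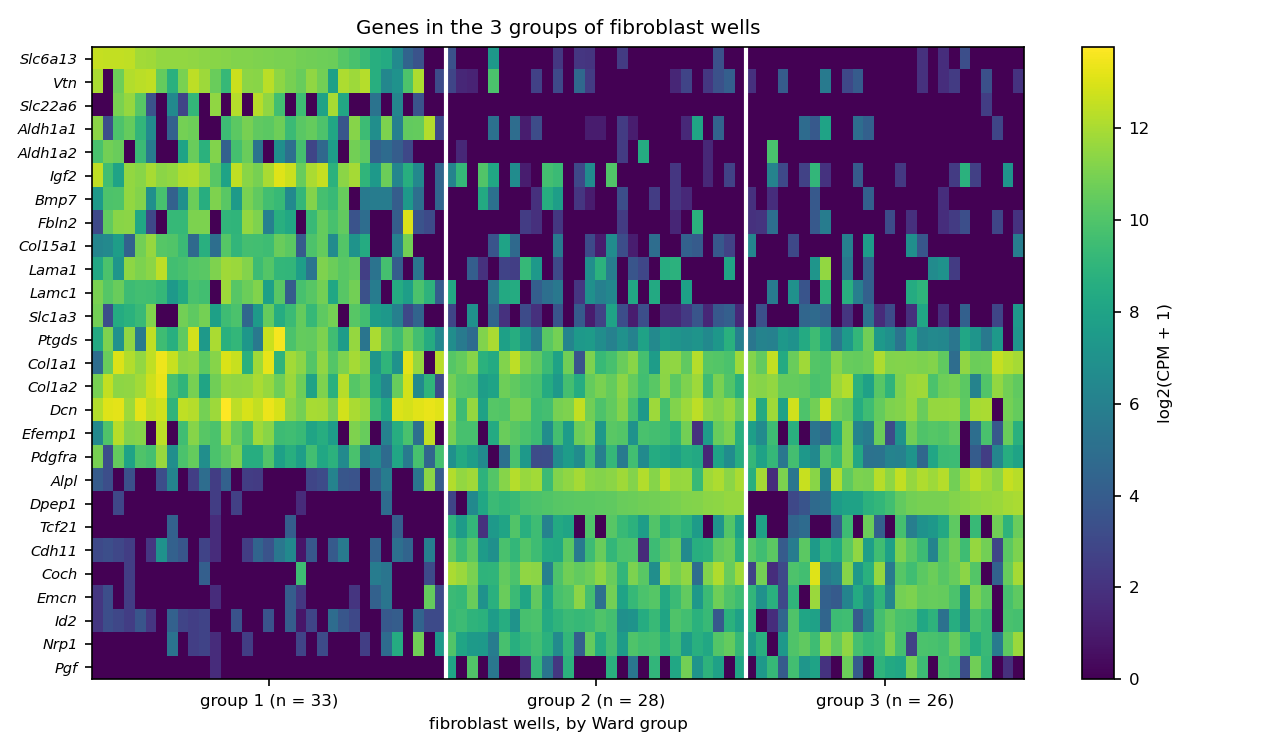
Level of 27 genes (rows) in each of 87 fibroblast wells (columns), coloured by log2(CPM + 1), with white lines between the 3 Ward groups and wells ordered within a group by Slc6a13 minus Dpep1. Genes from Slc6a13 to Slc1a3 are bright in group 1, those from Alpl to Pgf in groups 2 and 3, and Col1a1, Col1a2 and Dcn in all 3.

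Group 1 was led by Slc22a6 at 1018 CPM, which had 1 read in the other 54 wells together, Fam180a (716 against 0.20 CPM), Clec3b (283 against 0.51 CPM, tetranectin), Slc30a10 (184 against 0.10 CPM, a manganese exporter), Arhgap20 (249 against 0.56 CPM) and Wfdc1 (439 against 2.30 CPM). These sums rested on few wells, 13 of 33 at 200 CPM for Slc22a6 and 6 for Slc30a10. More regular were Aldh1a1, an enzyme of retinoic acid synthesis, in 23 wells against 2 (log2 ratio of group 1 over groups 2 and 3 6.62), Fbln2 in 19 against 1 (6.17) and Slc6a20a, a proline transporter, in 15 against 1 (5.95). Lrrc59 (6.36) passed in 3 wells. Within 1025s_182s the sums were 1201 against 0.10 CPM for Slc22a6, 1587 against 0 CPM for Fam180a, 97.2 against 0 CPM for Clec3b, 270 against 0 CPM for Slc30a10, 103 against 0.10 CPM for Arhgap20, 290 against 1.67 CPM for Wfdc1, 1187 against 0.39 CPM for Aldh1a1, 917 against 1.97 CPM for Fbln2 and 851 against 0.39 CPM for Lrrc59, so each kept its direction. Igf2 stood at a median of 2575 CPM in group 1 and 0 CPM elsewhere (log2 ratio 4.45), Bmp7 at 558 and 0 CPM (5.40), the basement membrane collagen Col15a1 at 409 and 0 CPM (4.85), Lama1 at 880 and 0 CPM (3.01) and the laminin chain Lamc1 at 766 and 0 CPM (3.41). Within 1025s_182s the log2 ratios of these 5 genes were 3.77, 5.41, 3.83, 5.60 and 4.15.

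Groups 2 and 3 together showed Tcf21 at 417 against 0.64 CPM in group 1, Cdh11 at 911 against 10.3 CPM, Cpxm1 at 1189 against 7.22 CPM, Coch at 1811 against 155 CPM, the BMP target Id2 at 545 against 4.49 CPM, the semaphorin and VEGF co-receptor Nrp1 at 753 against 36.8 CPM and Pgf at 336 against 0.16 CPM, which is 1 read. Wnt2, Hgf and Foxc2 were likewise at 234, 159 and 129 CPM there and at 0.32 CPM or less in group 1, with medians in groups 2 and 3 between 0 and 3.16 CPM. Within 1025s_182s the log2 ratios of group 1 over groups 2 and 3 were −7.90 for Tcf21, −5.65 for Cdh11, −7.59 for Cpxm1, −8.64 for Coch, −6.64 for Id2 and −7.75 for Nrp1. Pgf, Wnt2, Hgf and Foxc2 were at 396, 121, 177 and 163 CPM in groups 2 and 3 of that set and at 1.20 CPM or less in group 1. Emcn followed this division: 41 of 54 wells passed 200 CPM (median 669 CPM), against 1 of 33 (median 0 CPM), and within 1025s_182s the sums were 896 and 118 CPM. Adh1, an alcohol dehydrogenase that acts on retinol, passed in 48 of 54 wells against 5 of 33, and Vcam1, a leukocyte adhesion molecule, in 47 against 7. Within 1025s_182s their log2 ratios were −1.67 and −1.32, less far from 0 than the median of all genes there. By contrast, several genes high against endothelial wells differed by less than 2-fold between the groups: Col1a1 (log2 ratio 0.73), Col1a2 (0.65), Col6a2 (0.83), Efemp1 (0.71), Lama2 (0.07), Pdgfrb (0.10), Serping1 (0.16) and Bgn (0.30). Within 1025s_182s these were 0.63, 0.74, 0.14, 1.77, 0.42, −0.27, 0.64 and 0.07, so Efemp1 passed 2-fold there. Against all other fibroblast wells, group 1 included, Cd59a (75.5 against 1.03 CPM), Rint1, Kbtbd2, Arel1, Tifa, Tspan12, Zdhhc7, Snx32, Rem1 and Utp3 led group 2 in 2 to 7 wells at 200 CPM, and Fn1 (221 against 13.2 CPM), Ltbp1, Rtf1, Wrnip1, Smarcc1, Soga1, Lrrc8d, Dip2a, Trrap and Zzef1 led group 3 in 2 to 8 wells.

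Set against each other, group 2 was called higher than group 3 at 27.4% of 11150 tested genes and lower at 19.7% (median 0.14). Of 18 basement membrane genes 0 were called higher in group 2 and 7 in group 3 (median −0.50), and of 15 interstitial collagens 2 and 6 (median −0.82). Within 1025s_182s these were 2 and 6 of 17 (median −0.20) and 1 and 7 of 15 (median −0.77). Of all 10946 genes tested within that set, 3410 were called higher in group 2 and 2572 in group 3 (median 0.13). Blood-brain barrier transporters went the other way, with 9 and 0 of 15 (median 1.10) and, within 1025s_182s, 9 and 1 of 15 (median 1.78). Without the 4 wells with at least 3 choroid plexus markers they were 5 and 1 of 14 (median 0.92). Of all 10994 genes tested then, 2913 were called higher in group 2 and 2249 in group 3 (median 0.12). The genes of this paragraph were chosen after their values were seen. Lamb2, a laminin beta chain, was at 127 CPM in group 2 and 503 CPM in group 3, with 7 and 11 wells at 200 CPM. Dkk3 was at 519 and 176 CPM, with 16 and 5 wells, and Gjb2 at 432 and 112 CPM, with 12 and 5 wells. The 4 fibroblast wells with at least 3 choroid plexus markers all lay in group 2. In group 2 the choroid plexus markers Folr1, Kcnj13 and Kl were at 169, 192 and 159 CPM and in group 3 at 2.05, 4.57 and 2.21 CPM. Without those 4 wells, an alternative added after seeing the data, Folr1 fell to 1.75 CPM and Kcnj13 to 5.49 CPM in group 2, Kl stood at 82.8 CPM, and Enpp2, which encodes the lysophospholipase autotaxin, went from 1274 to 310 CPM against 360 CPM in group 3. Lamb2, Dkk3 and Gjb2 were then at 130, 566 and 473 CPM in group 2. Within 1025s_182s, which held 11 wells of group 2 and 18 of group 3, Lamb2 was at 127 and 478 CPM, Gjb2 at 411 and 153 CPM and Dkk3 at 300.3 and 237 CPM, so the difference in Dkk3 was smaller there.

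Among the genes with the largest ratio between sets, Pgf, Adamtsl2, Hpgd and Gdf10 were listed at 0 in the 23 fibroblast wells of 600s_182s and at 240, 427, 300.1 and 201 CPM in 613s. Scara3 was also listed at 0 there and was at 162 CPM in 1025s_182s, and Itga11 was at 165 CPM there and listed at 0 in 613s.

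Set against the endothelial wells separately, most interstitial collagens stood above them in both kinds of fibroblast wells, and the basement membrane and transporter lists differed more between the kinds. Of all genes tested, 22.3% were called higher and 39.5% lower in group 1 than in endothelial wells, and 21.2% and 23.5% in groups 2 and 3, with median log2 ratios of −0.47 and −0.08. The lower depth of group 1 stands beside these values. Interstitial collagens were called higher in 15 of 17 tested genes in group 1 and 14 of 15 in groups 2 and 3 (medians 4.26 and 3.31). They were called lower in 2 cases in group 1 and in 0 cases in groups 2 and 3. Mesenchymal transcription factors were called higher in 15 of 18 and 18 of 21 (3.69 and 3.09). Basement membrane genes were called higher in 16 of 19 in group 1, with 3 called lower (median 3.34), and in 9 of 18 in groups 2 and 3, with 4 called lower (median 1.15). Leptomeningeal transporters were called higher in 15 of 17 tested in group 1 (median 3.64). In groups 2 and 3 they were called higher in 4 of 12 and lower in 4 (median −0.30). A gene was tested where either side of a comparison reached the minimum level, so the tested genes of each list differ between the kinds. A transporter at that level in group 1 alone entered the 17 but not the 12. The difference between these shares and medians is therefore partly set by which genes were tested. Slc6a20a, Slc1a3, the glutamate transporter of glia, and Slc13a4, a sulfate transporter, had log2 ratios to endothelial wells of 3.64, 3.36 and 4.13 in group 1 and −2.32, −1.87 and −0.20 in groups 2 and 3. Within 1025s_182s these 3 were 5.23, 4.30 and 4.37 log2 units higher in group 1 than in groups 2 and 3.

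Direct comparison of group 1 with groups 2 and 3 called 20.4% of 11250 genes higher and 35.8% lower in group 1 (median −0.33). The transporters were called higher in 12 of 17 and lower in 1 (median 2.36), and basement membrane genes higher in 10 of 17 and lower in 0 (median 1.57). MHC class I and interferon genes were called higher in 0 of 19 and lower in 13 (median −1.10), and immediate early genes higher in 2 of 20 and lower in 10 (median −0.98), among them Socs3 at 84.6 against 827 CPM (1.20 against 1087 CPM within 1025s_182s). Interstitial collagens were called higher in 5 of 17 and lower in 3 (median 0.35). Within 1025s_182s the transporters were called higher in 11 of 16 and lower in 3 (median 3.09), basement membrane genes higher in 9 of 17 and lower in 2 (median 1.05), and interstitial collagens higher and lower in 6 each of 17 (median 0.64). In that set MHC class I and interferon genes had a median of −3.26 and immediate early genes one of −1.99, the latter close to the median of all genes there. Mesenchymal transcription factors had a median of 1.12 over all sets and −0.87 within 1025s_182s, where the median of all genes was −1.83. Retinoid genes went both ways, 2 higher and 9 lower of 14 tested (median −1.58). Within 1025s_182s 2 were higher and 7 lower (median −1.08), less far from 0 than the median of all genes there. Aldh1a1 and Aldh1a2 were the 2 higher ones, at 6.62 and 4.77 log2 units, while Adh1 and Dhrs3 were at −3.28 and −1.73. Within 1025s_182s these 4 were 9.74, 5.11, −1.67 and −1.35, the last 2 less far from 0 than the median of all genes there. Rbp4 and Crabp1 were at 90.4 and 50.0 CPM in groups 2 and 3 and at 0.32 and 0.16 CPM, which is 3 reads together, in group 1. Within 1025s_182s they were at 69.8 and 80.2 CPM against 0 and 0.60 CPM. Of 12 tested leptomeningeal layer genes 8 were called higher in group 1 and 3 lower (median 3.00), and 6 and 5 of 11 within 1025s_182s (median 1.60). The 8 were Igf2, Aldh1a2, Lama1, Ptgds, S100a6, Cyp1b1, Ngfr and Dpp4, the last 2 at 0.60 and 0 CPM in group 1 of that set, where the log2 ratios of Ptgds, S100a6 and Cyp1b1 were 3.90, 4.19 and 1.60. The 3 were Alpl, Mgp and Fxyd5, at 64.5 against 3109 CPM, 280 against 1422 CPM and 25.0 against 437 CPM. These kept their direction within 1025s_182s (−3.85, −1.61 and −7.01), with Mgp less far from 0 than the median of all genes there.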

How the data were processed

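The deposited table holds counts, whole numbers of reads per gene that the authors had not normalized, for 46517 genes in 1152 wells. Per the submitters' processing notes, the tools were featureCounts (Subread 1.4.6-p5), TopHat2 2.1.1 and SAMtools 0.1.18, with the builds GRCm38 and mm10. Not given in the sources used here were the annotation, the strand setting and the handling of multi-mapped reads, which makes overlapping, antisense and paralogous genes uncertain. Reads have no molecular identifiers, so copies made by PCR cannot be told apart from separate molecules. Positions come from GENCODE vM21, in which 90.2% of the symbols were found, and bases before gene starts from RefSeq GRCm38.p6.

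Counts were scaled to CPM per well and, for each class, to CPM of summed counts, which weighs deeper wells more. Ratios are log2 with 1 CPM added to each side. Intervals are exact Poisson or Clopper-Pearson at 95%. Shares of wells with reads were taken after thinning each well to 50000 reads. Ward clustering used log2(CPM + 1). The rule for calls was checked on simulated counts, drawn for all wells of a class from 1 profile. That check therefore cannot show how variation between wells or sets affects the calls. Python 3.11.15, NumPy 2.4.6, pandas 2.3.3, SciPy 1.17.1 and matplotlib 3.10.9 were used. With 1 sample there is no test, and no doublet caller was run on these sorted wells.

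Genes were named by a rule: the 12 highest and 12 lowest ratios among genes at 50 CPM or more, detected in at least 50% of thinned wells of the higher class and called alike in every set; up to 4 called members at each end of each of 27 lists; all gate genes, Pdgfra and Tagln; all tested ligands and receptors; 10 leading genes per Ward group and 6 genes that differed most between sets. Of the genes the rule takes, 2 are not reported here. Other genes named in the text are marked as chosen after their values were seen. The members, lists and marker genes were chosen with earlier results of these data known. Alternatives varied the gates, depth minimum, mixed wells, averaging, scaling, added CPM, minimum level and sets.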

Additional observations from a re-analysis of the deposited data

How the results depend on the processing

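No paired analysis was possible because all wells form 1 sample and carry no replicate number. The 21 alternatives included 2 added after seeing the data (leaving out wells with pericyte, smooth-muscle or microglial markers, and a gate without Emcn). The counts of 2576 genes higher in fibroblast wells and 2664 higher in endothelial wells moved by more than 1.5 times in these cases: without wells carrying any other listed cell type (35 fibroblast and 7 endothelial wells) the first became 5589, from the median over wells it became 373, with at least 50 CPM they became 1334 and 1252, and with no minimum CPM the second became 4108. Of 189 called genes that the naming rule takes, 172 did not turn to the opposite sign in any of the 21 alternatives. A ratio of 0, as from a median well of 0 CPM in both classes, was not counted as turned. Some of the 172 may thus have lost their difference there, and sizes changed more often. With the median over wells, 18 of 27 list medians, the number of fibroblast-higher members in 18 of 27 lists and 136 of 198 log2 ratios moved by more than the spread between sets (for numbers of members, by more than 1.5 times). Without wells carrying any other listed cell type, 19 list medians and 94 log2 ratios did. Without wells carrying any other listed cell type, log2 ratios changed sign for Pcolce2 (0.12), P3h2 (0.73), Aspn (0.12), Lama3 (0.12), Slc26a2 (2.93), Cyp26b1 (0.12), Ptgs1 (5.17), Synpo2 (3.55), Hspa1b (0.33), Tagln (0.13) and Ednrb (0.17). The values of 0.12 are equal to each other and near 0. Those genes lost their difference and did not become higher in fibroblast wells. Tagln and Ednrb were also near 0. Without wells with pericyte, smooth-muscle or microglial markers (83 fibroblast and 29 endothelial wells left) log2 ratios turned for Aspn (1.07), Slc26a2 (0.96) and Ptgs1 (3.32). With the median over wells they turned for the BMP signalling list (−1.86), Bmp4 (−0.52) and Slc6a13 (−1.81), with a gate at 100 CPM for Pcolce2 (0.56), without the set 1025s_182s for Kit (−0.39), and without 613s for Meox1 (0.20), Plau (−0.13) and Dpp4 (0.62). The cause was not tested. Leaving out mixed wells left few endothelial wells, and a gene at 50 CPM in a well at the depth minimum rests on few reads. Of 76 shares of wells with reads, 52 moved when wells were not thinned and 9 when they were thinned to 100000 reads.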

Other observations

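The 21 wells that passed both gates were left out of the comparison and are given here as values only. They came from 1025s_182s (11 wells), 600s_182s (1) and 613s (9), with 53265 to 785149 reads (median 420583). Their summed reads held Col1a1 at 860 CPM and Col1a2 at 654 CPM, against 2328 and 1769 CPM in fibroblast wells. At least 3 microglial markers reached 200 CPM in 9 of them, at least 3 pericyte markers in 5, and at least 3 oligodendrocyte markers in 12.

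Some genes listed as markers of other cell types had summed levels above the endothelial ones in fibroblast wells. Listed for microglia, Tmem119 was at 332 against 265 CPM, and Vtn, listed for pericytes, was at 657 against 462 CPM. The astrocyte markers Aldh1l1 and Fgfr3 were at 79.6 against 7.94 CPM and 90.6 against 28.4 CPM, and no fibroblast well had 3 astrocyte markers at 200 CPM. These genes were chosen after their values were seen.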
